A study of Mus musculus with 8 samples.

Results

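The data were RNA-seq read counts of islets in which Sirt6 had been removed from the beta cells of adult mice, set against the controls of that model. They were chosen as the 2 BKO libraries and the 2 BKO control libraries, which is 4 of the 8 libraries of the series, and all 22609 genes of the count table were described. The BKO islets carried MIP1-CreERT and Sirt6 f/f, so both Sirt6 alleles were floxed, and were taken 2 weeks after tamoxifen. The controls also carried MIP1-CreERT, with Sirt6 f/+ in replicate 1 and Sirt6 +/+ in replicate 2. The sources do not say whether the controls were given tamoxifen. All mice were males of 8 to 9 weeks on a mixed strain background. The other model, used only for comparison, was EKO, with Ngn3-Cre and Sirt6 f/f (2 libraries), against Ngn3-Cre with Sirt6 +/+ (2 libraries). Islets were kept for 4 h after isolation in medium with 10% serum before RNA was taken, and about 100 ng of total RNA entered a stranded mRNA library.

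Sirt6 is a nuclear enzyme that uses NAD+ to remove acetyl groups from histone H3, which holds down transcription at many promoters, and it also takes part in DNA repair. In liver and muscle it is best known as a restraint on glycolysis genes, and in beta cells it has been linked to insulin secretion in response to glucose. MIP1-CreERT is a tamoxifen-activated recombinase driven by a mouse insulin promoter. It acts in beta cells, while alpha, delta, acinar, duct, vessel and immune cells of an islet preparation keep the gene. A whole-islet value is therefore a mixture, in which fewer cells of a type and less RNA per cell cannot be told apart.

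The libraries were deep, with 38029994 and 44442165 gene reads in BKO, against 43198451 and 37302246 in the controls. The insulin genes Ins1 and Ins2 took 17.3% and 23.2% of gene reads in BKO, against 15.5% and 14.8% in the controls. Beta, alpha and delta cell genes were all present, so the libraries were of islets as labelled. Summed over the acinar list (digestive enzymes of the exocrine pancreas, 33 genes with a read), the level was 422 and 207 CPM in BKO, against 1100 and 883 CPM in the controls. CPM stands for gene counts scaled to library size after TMM, which makes libraries level over the bulk of genes. Acinar RNA was thus below both controls in each BKO library. A second source of RNA ran with the replicate number. A list of 18 lymphocyte and lymph node genes, picked after their values were seen, summed to 283 and 14.1 CPM in BKO replicates 1 and 2, and to 271 and 12.1 CPM in control replicates 1 and 2. Of these 18, 16 were higher in both replicate 1 libraries than in both replicate 2 libraries, an order held by 16.6% of all tested genes. Ccr7, a homing receptor of lymphocytes and dendritic cells, was at 58.3 and 4.66 CPM in BKO and at 57.2 and 2.99 CPM in the controls. Igj, the joining chain of secreted antibodies, was at 0.156 and 0.0485 CPM in BKO and at 61.3 and 0.525 CPM in the controls. The part of acinar and lymphoid RNA in the results was not tested except where an alternative is named.

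**Figure D1:**
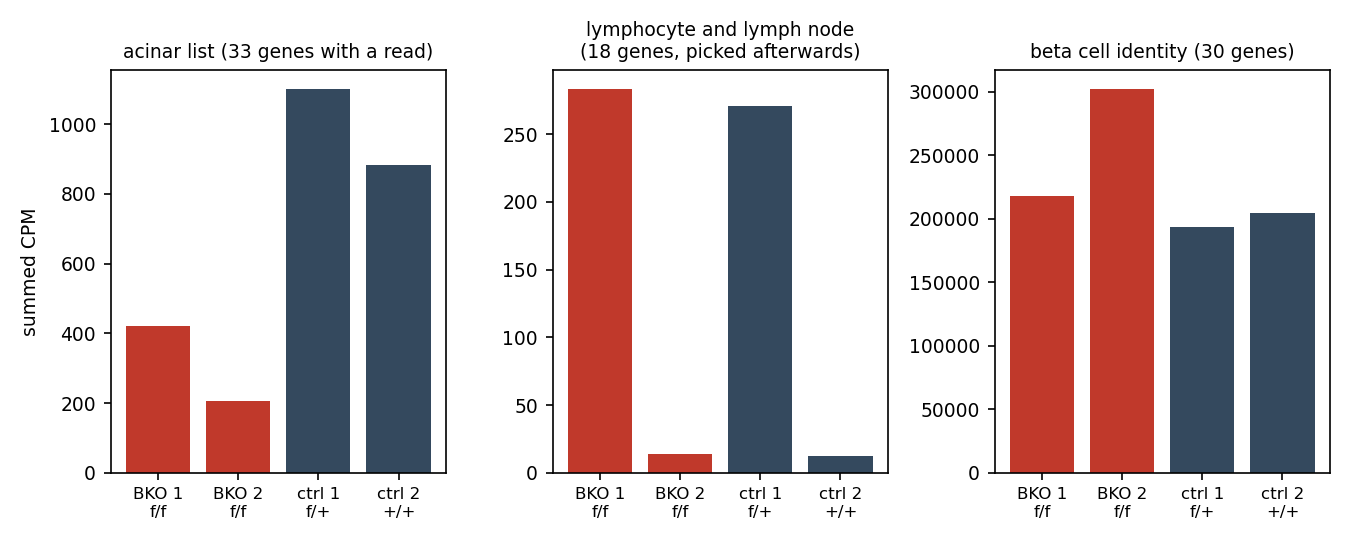
Summed TMM-scaled CPM (vertical axis, from 0, each panel on its own scale) of 3 gene lists in the 2 BKO and the 2 control libraries, with the Sirt6 genotype under each bar. Acinar RNA is lower in both BKO libraries (422 and 207, against 1100 and 883), lymphoid RNA is high in replicate 1 of both groups, and beta cell identity genes are highest in BKO replicate 2.

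The deleted gene itself did not separate the groups. Sirt6 was at 17.1 and 23.0 CPM in BKO and at 19.1 and 12.8 CPM in the controls, so the groups overlapped. Its log2 fold change (BKO over control) was 0.33 ± 0.28 (SE), with an adjusted p of 1 by both edgeR and DESeq2. A count over the whole gene includes exons outside the floxed part and cells that keep the gene, so it does not check the deletion. Among the other sirtuins, the mitochondrial Sirt3 was at 16.5 and 19.6 CPM in BKO and at 11.8 and 14.6 CPM in the controls (log2 fold change 0.45 ± 0.22), and no sirtuin of 7 had an unadjusted p under 0.05.

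Across all genes, no single gene passed the threshold in the main test. Of 14783 genes tested, the quasi-likelihood test of edgeR, adjusted by Benjamini-Hochberg, called 0 higher and 0 lower (0%), and the smallest adjusted p was 0.604. At an unadjusted p under 0.05, 311 genes were higher (2.1%) and 200 lower (1.35%), together 511 genes (3.46%), where 739 would be expected by chance alone. DESeq2, listed as an alternative, called 52 higher (0.384%) and 36 lower (0.266%) of the 13553 genes to which it gave an adjusted p, together 88 (0.649%). limma-voom called 0. The fold change was above 1 in BKO for 7546 genes (51%). Both BKO libraries lay above both controls for 2409 genes (16.3%) and below both for 2031 genes (13.7%). With 2 libraries a group, an exact permutation test cannot give a two-sided p under 0.333. The sources do not say that replicates were separate animals, apart from the 2 controls, whose genotypes differ, so p-values measure the spread between libraries. Below, an adjusted p of a single gene is that of DESeq2, since edgeR gave 0.604 to 1 for each, and a count at p under 0.05 is of unadjusted edgeR values and is a description.

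**Figure D2:**
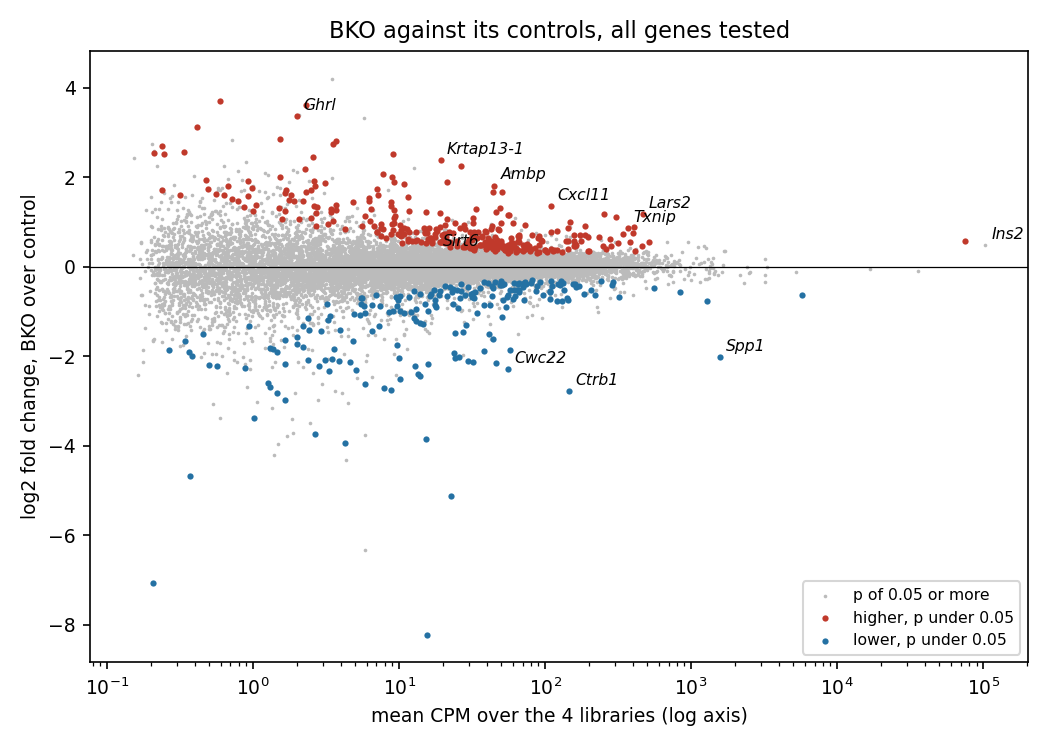
Log2 fold change of BKO over control (vertical axis) against mean TMM-scaled CPM over the 4 libraries (horizontal log axis) for the 14783 genes tested. The 311 genes higher and the 200 genes lower at an unadjusted p under 0.05 are coloured, and 0 genes passed after adjustment.

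Krtap13-1 had the smallest p among the higher genes, and its neighbour Krtap13 was also among the leading 15. The leading 15 in each direction had the smallest p among genes with a mean of at least 1 CPM and groups that do not overlap. That their groups are apart therefore follows from the choice. Keratin-associated proteins are small proteins of the hair shaft, where they bind keratin filaments. Krtap13-1 was at 32.8 and 31.8 CPM in BKO, against 5.32 and 7.06 CPM in the controls. Krtap13 was at 4.2 and 4.32 CPM in BKO, against 0.223 and 0.472 CPM in the controls. In both genes the 2 BKO values were close to each other. The log2 fold change was 2.38 ± 0.22 for Krtap13-1 (adjusted p = 3.92e-17 by DESeq2) and 3.61 ± 0.53 for Krtap13 (adjusted p = 7.53e-06 by DESeq2). They are adjacent among the tested genes of their chromosome, and the next one, Krtap14, was at 2.18 and 2.60 CPM in BKO and at 1.89 and 1.29 CPM in the controls. In the EKO model both had 0 reads in all 4 libraries. Reads that fit both copies equally well were set aside as not unique and not counted, so the level of each alone is uncertain.

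The promoters of the pair are shown because the genes are neighbours and both were higher. The sequences are from RefSeq (GRCm38.p6) and run from 250 bases before to 50 bases after the annotated start, 5′ to 3′ on the gene's strand. Capitals mark each TATAAA, the core of the TATA box, which places the start of transcription. Krtap13-1 lies at chr16:88728612-88728911 on the plus strand and Krtap13 at chr16:88751579-88751878 on the minus strand.
Krtap13-1: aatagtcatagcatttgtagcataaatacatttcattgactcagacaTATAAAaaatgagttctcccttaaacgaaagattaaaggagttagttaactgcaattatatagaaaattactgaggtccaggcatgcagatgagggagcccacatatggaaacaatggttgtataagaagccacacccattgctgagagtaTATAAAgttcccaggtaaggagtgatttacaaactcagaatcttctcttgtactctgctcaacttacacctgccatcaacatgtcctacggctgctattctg
Krtap13: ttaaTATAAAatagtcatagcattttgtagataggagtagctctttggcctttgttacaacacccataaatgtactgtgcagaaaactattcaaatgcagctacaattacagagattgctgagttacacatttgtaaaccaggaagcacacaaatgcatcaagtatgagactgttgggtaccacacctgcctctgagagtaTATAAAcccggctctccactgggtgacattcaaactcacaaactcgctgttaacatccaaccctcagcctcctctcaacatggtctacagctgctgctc
Aligned over 328 columns with gaps allowed, 57.6% of positions were identical. No other pair was aligned, so whether this exceeds the share in unrelated promoters was not tested. Each holds TATAAA at 2 places, which begin at positions -203 and -52 from the start in Krtap13-1, and at -246 and -49 in Krtap13. TATAAA, searched on both strands in any promoter of a gene, was found for 10.1% of the 227 matched genes higher at p under 0.05. It was found for 18.1% of the 149 matched genes lower, and for 9.42% of the 10361 matched genes among all tested. Counted per promoter rather than per gene, the share in all 32851 promoters was 13.6%.

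Ambp, Th and Lars2, also among the leading 15, encode a secreted protein and enzymes. Ambp encodes a precursor that is cut into alpha-1-microglobulin, a haem-binding plasma protein, and bikunin, a protease inhibitor. It was at 64.1 and 75.0 CPM in BKO, against 18.1 and 21.6 CPM in the controls. The log2 fold change was 1.81 ± 0.16 (adjusted p = 2.06e-15 by DESeq2). In its list, with the heavy chains that bind bikunin, Ambp was the single one of 6 tested members at p under 0.05. Itih2, a heavy chain, was at 2.51 and 3.67 CPM in BKO and at 2.25 and 3.02 CPM in the controls. Th makes the catecholamine precursor L-DOPA from tyrosine, the slowest step of that pathway. It was at 55.5 and 77.8 CPM in BKO, against 24.5 and 17.6 CPM in the controls. Its log2 fold change was 1.66 ± 0.25 (adjusted p = 2.55e-06 by DESeq2). Ddc, which acts after Th, was at 346 and 231 CPM in BKO and at 125 and 258 CPM in the controls, so there the groups overlapped. Lars2, the leucyl-tRNA synthetase of mitochondria, was at 638 and 654 CPM in BKO, against 269 and 301 CPM in the controls. Both BKO libraries were more than double either control (1.18 ± 0.13, adjusted p = 4.64e-14 by DESeq2). In its list of 35 genes of mitochondrial translation and aminoacyl-tRNA synthesis it was the single member at p under 0.05. Over all genes 3.46% had such a p. Of the 35, 16 were higher (45.7%, against 51% of all genes).

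Genes of membrane transport and signalling were also among the leading 15. Trpm5 is a calcium-activated cation channel of taste cells and beta cells. It was at 72.2 and 68.5 CPM in BKO, against 31.7 and 24.6 CPM in the controls (1.32 ± 0.17, adjusted p = 3.2e-07 by DESeq2). Slc5a10, a sodium-coupled sugar transporter, was low in all libraries, at 5.86 and 7.14 CPM in BKO and at 0.824 and 1.02 CPM in the controls. The difference was 2.81 ± 0.35 on the log2 scale (adjusted p = 3.16e-07 by DESeq2). Specc1, a cytoskeletal coiled-coil protein, was at 62.9 and 90.8 CPM in BKO, against 23.9 and 24.8 CPM in the controls (1.66 ± 0.21). The other members of the leading 15 were Gas2, Fam151a, the growth factor Egf, the secreted fibrinogen-like protein Fgl2 and the lysosomal enzyme Aga, with log2 fold changes of 0.75 to 1.20.

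**Figure D3:**
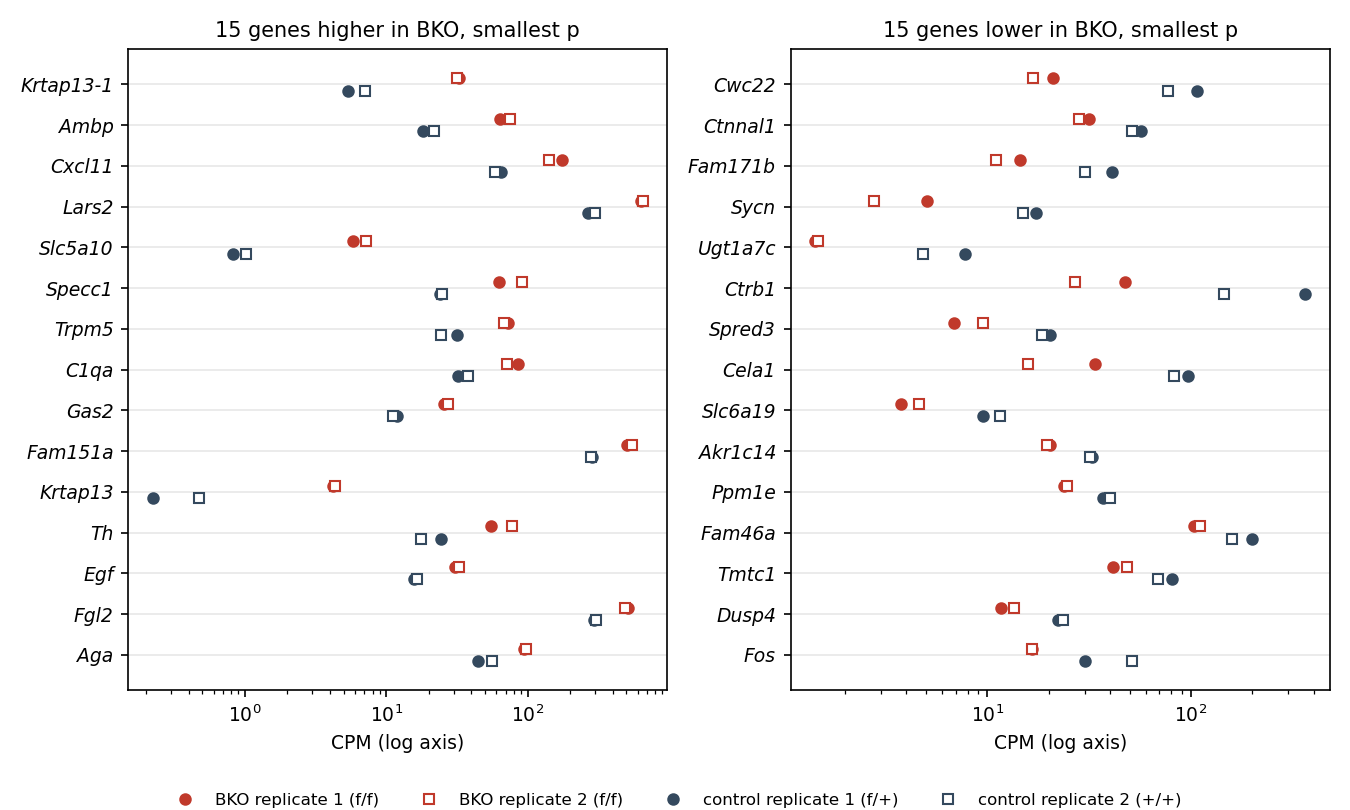
TMM-scaled CPM (horizontal log axis) of the 15 genes with the smallest p in each direction, among genes with a mean of at least 1 CPM and groups that do not overlap. Red marks are the 2 BKO libraries, dark marks the 2 controls, and circles and squares are replicates 1 and 2. The groups are apart in each row because the choice of genes requires it.

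Immune genes were mixed. Cxcl11 encodes a chemokine that draws CXCR3-bearing T cells. It was at 174 and 143 CPM in BKO, against 64.3 and 59.1 CPM in the controls (1.36 ± 0.15, adjusted p = 2.53e-10 by DESeq2). Cxcl10, its neighbour and a ligand of the same receptor, was at 475 and 230 CPM in BKO, against 171 and 140 CPM in the controls (1.18 ± 0.36, adjusted p = 0.0668 by DESeq2). Both chemokines were higher in both BKO libraries, whereas Cxcl9, the third ligand of CXCR3, followed the lymphoid genes, at 66.0 and 2.14 CPM in BKO and at 191 and 0.866 CPM in the controls. C1qa, a subunit of complement C1q made by macrophages, was at 84.9 and 71.2 CPM in BKO, against 32.3 and 37.9 CPM in the controls (1.15 ± 0.16, adjusted p = 8.69e-06 by DESeq2). Its partner C1qc was also above both controls (0.92 ± 0.30, adjusted p = 0.597 by DESeq2), and Cd68, another macrophage gene, was lower, at 18 and 17 CPM in BKO and at 24.5 and 41.7 CPM in the controls. Of 20 tested genes of the macrophage and immune list 14 were higher, 4 of them at p under 0.05, against 2.1% of all genes, and 1 of the 6 lower, Cd68, had such a p, against 1.35% of all genes. The list had a median log2 fold change of 0.66, against 0.01 over all genes. Lymphoid RNA was high in replicate 1 of both groups. Without BKO replicate 1 that list median was -0.38, and without control replicate 1 it was 0.61. It was 0.87 without BKO replicate 2 and 0.76 without control replicate 2. The summed level of the list was 605 and 396 CPM in BKO, against 488 and 330 CPM in the controls, so in each group it was higher in replicate 1. In the interferon list 24 of 35 were lower and 11 higher (31.4%, against 51% of all genes). Without control replicate 1, however, 27 of 35 were higher. Among the lower was Ifi44, an interferon-induced gene, at 14.7 and 14.4 CPM in BKO and at 23.6 and 21.9 CPM in the controls.

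Among genes lower in BKO, Cwc22 had the smallest p. Cwc22 is a splicing factor that helps place the exon junction complex, and mouse stocks carry different numbers of copies of it. It was at 21.1 and 16.8 CPM in BKO, against 107 and 77.0 CPM in the controls. The log2 fold change was -2.28 ± 0.22 (adjusted p = 3.76e-16 by DESeq2). In the other model the same gene varied within each genotype, at 136 and 23.5 CPM in EKO and at 109 and 17.5 CPM in the EKO controls. A difference as large as that between BKO and its controls thus occurred between libraries of 1 genotype. Fam171b, 14 tested genes from Cwc22 on the same chromosome, was at 14.5 and 11 CPM in BKO, against 40.9 and 30.2 CPM in the controls (-1.48 ± 0.24). Neurod1, a beta cell transcription factor between them, was at 428 and 448 CPM in BKO and at 377 and 358 CPM in the controls.

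Acinar genes were lower as a group. Of 29 tested acinar genes 28 were lower and 1 higher (3.45%, against 51% of all genes). Of the lower, 22 had a p under 0.05, against 1.35% of all genes. DESeq2 called 10 lower, against 0.266% of the genes to which it gave an adjusted p. The median log2 fold change was -2.12, against 0.01 over all genes, and it ranged from -3.32 to -1.48 when 1 library was left out. Ctrb1, chymotrypsinogen B, was at 47.3 and 26.8 CPM in BKO, against 364 and 145 CPM in the controls. Cela1, an elastase, was at 33.7 and 15.9 CPM in BKO, against 96.6 and 82.6 CPM in the controls. Sycn, a protein of zymogen granules, was at 5.08 and 2.77 CPM in BKO, against 17.4 and 14.9 CPM in the controls. These 3 are among the leading 15 lower genes, which were picked with groups apart. Of the 29 tested acinar genes, 27 had both BKO libraries below both controls, against 13.7% of all genes. Spp1, a duct and stellate gene, was at 266 and 975 CPM in BKO, against 2201 and 2858 CPM in the controls (-2.03 ± 0.61, adjusted p = 0.594 by DESeq2), while 8 of 14 duct genes were higher (4 to 12 when 1 library was left out).

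The remaining leading lower genes were not acinar. Fos, an immediate early transcription factor, was at 16.6 and 16.6 CPM in BKO, against 30.2 and 51.1 CPM in the controls (-1.30 ± 0.28, adjusted p = 0.00679 by DESeq2). Of 26 genes induced early after stimulation or by heat shock, its list, 22 were lower and 4 higher (15.4%, against 51% of all genes). Of the lower, 6 had a p under 0.05 (3 to 6 when 1 library was left out), against 1.35% of all genes, and the median was -0.30. Hspa1a, an inducible chaperone, was at 1.30 and 3.23 CPM in BKO, against 24.2 and 6.30 CPM in the controls. Hspa8, its constitutive relative, was at 70.1 and 108 CPM in BKO, against 147 and 157 CPM in the controls. Dusp4 and Spred3, which dampen MAP kinase signalling, were lower by 0.86 ± 0.18 and 1.25 ± 0.24 on the log2 scale. Slc6a19, a neutral amino acid transporter, was at 3.76 and 4.61 CPM in BKO, against 9.48 and 11.5 CPM in the controls. Ugt1a7c, a glucuronidating enzyme, was at 1.43 and 1.48 CPM in BKO, against 7.73 and 4.83 CPM in the controls. It shares exons with other genes of its locus, which makes its assignment uncertain. Ctnnal1, Akr1c14, Ppm1e, Fam46a and Tmtc1 had log2 fold changes between -0.86 and -0.67.

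Among hormone genes, insulin was higher in both BKO libraries and the rare ghrelin transcript differed most. Ins1 was at 74276 and 106094 CPM in BKO, against 61732 and 59263 CPM in the controls (0.58 ± 0.22, adjusted p = 0.371 by DESeq2). Ins2 was at 96326 and 144412 CPM in BKO, against 87209 and 85257 CPM in the controls (0.48 ± 0.24, adjusted p = 0.898 by DESeq2). For both genes BKO replicate 2 was much the highest. With the acinar level as a covariate, the log2 fold changes were -0.11 for Ins1 and -0.30 for Ins2. The mean acinar log2 CPM was 2.84 and 1.51 in BKO, against 4.14 and 3.95 in the controls. Acinar level and group thus go together, so this fit cannot tell them apart. Ghrl, the ghrelin gene of rare epsilon cells, was at 5.08 and 2.26 CPM in BKO, against 0.267 and 0.446 CPM in the controls (3.36 ± 0.62, adjusted p = 0.00213 by DESeq2). In the other model Ghrl went the other way, at 1.31 and 3.89 CPM in EKO, against 4.44 and 8.55 CPM in the EKO controls (-1.32 ± 0.71). The BKO values thus lay within the range of the EKO model, and the BKO controls lay below it. Gcg, glucagon, overlapped between groups at 16485 and 16769 CPM in BKO and at 13416 and 20784 CPM in the controls (-0.04 ± 0.24). Of 29 tested beta cell identity genes 15 were higher and 14 lower, with a median log2 fold change of 0.00. Slc2a2, the glucose transporter, and Mafa, a late beta cell transcription factor, gave -0.13 ± 0.22 and -0.05 ± 0.49, and their groups overlapped. Pcsk1, the first proinsulin convertase, was at 780 and 573 CPM in BKO, against 940 and 1066 CPM in the controls (-0.57 ± 0.20, adjusted p = 0.325 by DESeq2). Genes held off in mature beta cells, such as Cxcl12, were lower in 22 of 25 cases (12.0% higher, against 51% of all genes). Their median was -0.23, with 0 members at p under 0.05. Without control replicate 1, 15 of the 25 were higher. Chgb, a granin of secretory granules, was at 5002 and 3951 CPM in BKO, against 5705 and 8274 CPM in the controls.

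Txnip and Mlxipl were above both controls in both BKO libraries, while the list of ChREBP targets was mixed. Txnip, an inhibitor of thioredoxin that rises with glucose, was at 420 and 527 CPM in BKO, against 209 and 312 CPM in the controls. All BKO values lay above all controls (0.86 ± 0.24, adjusted p = 0.0665 by DESeq2). Mlxipl, which encodes ChREBP, the glucose-sensing factor that acts on Txnip, was at 195 and 267 CPM in BKO, against 136 and 149 CPM in the controls (0.70 ± 0.19). In the ChREBP list of 24 genes, 4 were higher and 1 lower at p under 0.05, against 2.1% and 1.35% of all genes. In all 14 of 24 were higher (58.3%, against 51% of all genes), with a median of 0.04, and 9 to 19 were higher when 1 library was left out. The lower one was Thrsp, a lipogenic gene, at 0.259 and 0.461 CPM in BKO, against 3.94 and 1.15 CPM in the controls. Of 26 glycolysis and HIF1 genes, only Pfkp, a phosphofructokinase, had a p under 0.05, at 268 and 212 CPM in BKO, against 160 and 141 CPM in the controls. Of that list 13 of 26 were higher, with a median of 0.01, as over all genes. The Txnip promoter is shown because Sirt6 has been linked to the forkhead factor FoxO1 at this gene, and capitals mark GTAAACA, a forkhead core. It lies at chr3:96557707-96558006 (RefSeq, GRCm38.p6, plus strand), 250 bases before to 50 after the start, and the match begins at position -121 from the start.
Txnip: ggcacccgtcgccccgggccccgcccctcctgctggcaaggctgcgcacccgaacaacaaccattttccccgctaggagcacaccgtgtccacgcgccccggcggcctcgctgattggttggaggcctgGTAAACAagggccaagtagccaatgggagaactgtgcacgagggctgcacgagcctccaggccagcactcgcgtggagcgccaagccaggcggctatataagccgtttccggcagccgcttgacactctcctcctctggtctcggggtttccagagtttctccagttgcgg
GTAAACA, on either strand in any promoter of a gene, was found for 5.73% of the 227 matched genes higher at p under 0.05. It was found for 1.34% of the 149 matched genes lower, and for 3.09% of the 10361 matched genes among all tested. CACGTG, the core of the E-box bound by ChREBP, was found in 9.25%, 8.72% and 11.4% of the same sets. A match is a run of letters in this window and was not tested as a bound site.

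Of the other stress and growth lists, the cell cycle had the highest median. Over all genes 51% were higher, and 2.1% were higher at p under 0.05. In the cell cycle list 26 of 36 genes were higher, with a median of 0.50 and 1 at p under 0.05, the anaphase activator Cdc20, at 3.94 and 3.54 CPM in BKO against 1.29 and 1.94 CPM in the controls. That count was 14 of 36 without BKO replicate 1, and the median was -0.22. The unfolded protein response list had 20 of 29 higher with 0 at p under 0.05 and a median of 0.08, and 12 of 29 were higher without BKO replicate 1. In the p53 and apoptosis list 19 of 30 were higher, with 0 at p under 0.05 and a median of 0.08. In the cholesterol synthesis list 15 of 24 were higher with a median of 0.09, and leaving out 1 library gave 9 to 23 higher and medians of -0.08 to 0.33. Oxidative phosphorylation had a median of 0.03 (-0.04 to 0.09 when 1 library was left out) and fatty acid oxidation 0.03 (-0.04 to 0.10). In the growth hormone and prolactin list 8 of 14 were higher and 6 lower, with a median of 0.045. When 1 library was left out, 7 to 9 were higher. The 2 members at p under 0.05 were both higher. Ivd was at 497 and 339 CPM in BKO, against 177 and 207 CPM in the controls (1.12 ± 0.22, adjusted p = 0.00117 by DESeq2). Cish, a feedback inhibitor of cytokine signalling, was at 296 and 279 CPM in BKO, against 150 and 214 CPM in the controls (0.66 ± 0.20, adjusted p = 0.231 by DESeq2). Both groups carry the MIP1-CreERT transgene.

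**Figure D4:**
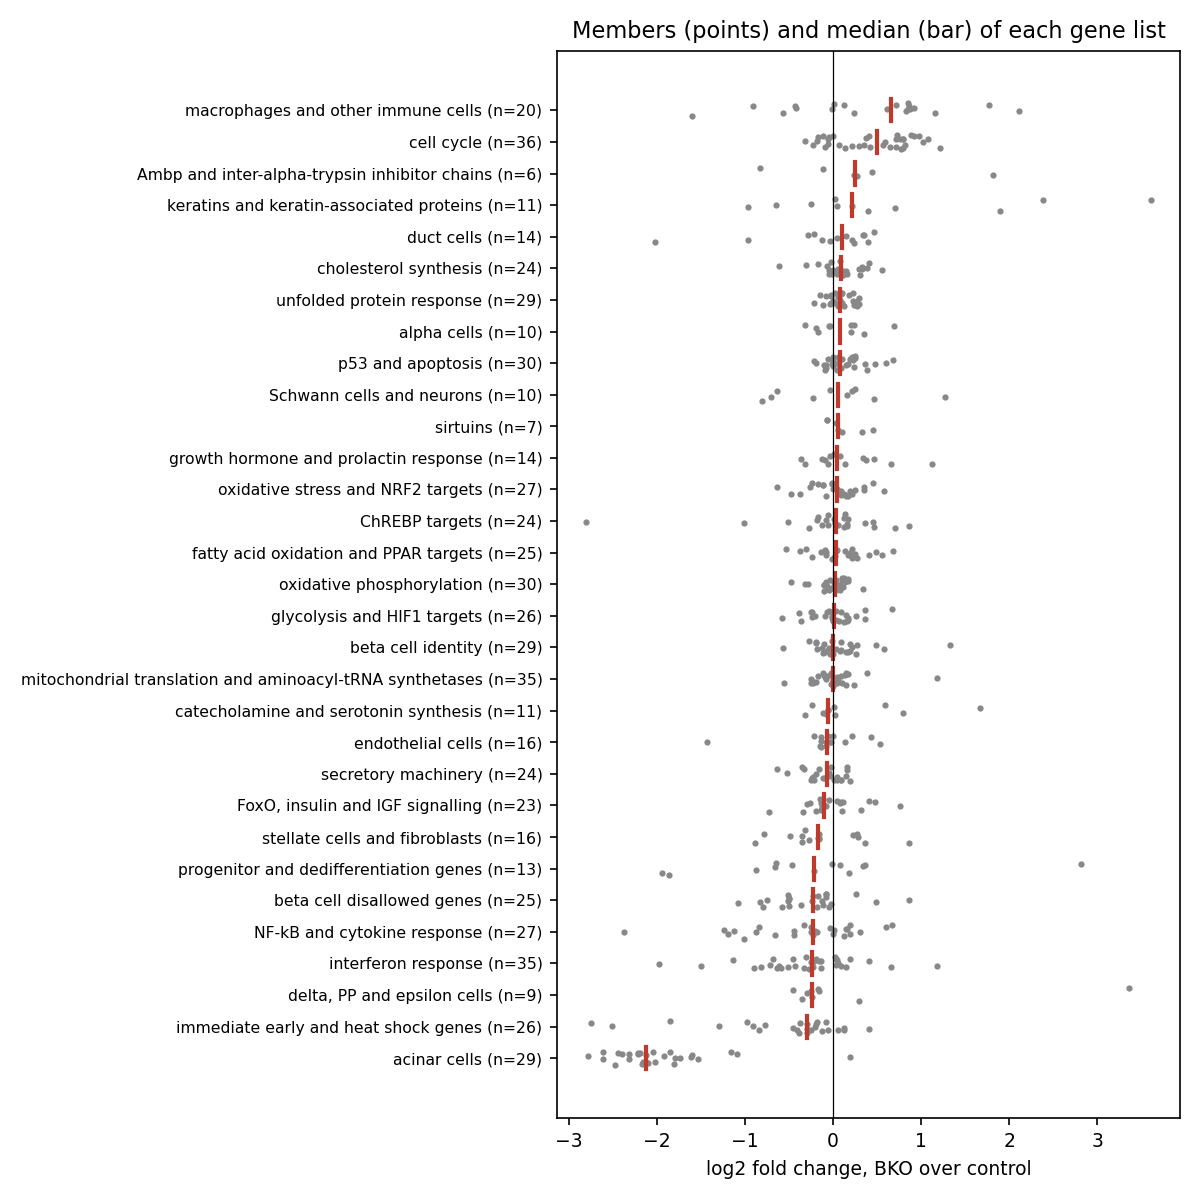
Log2 fold change of BKO over control (horizontal axis) for each tested member (grey points) of 31 gene lists, with the number tested in brackets and the median as a red bar. Lists are in order of median, and the acinar list lies lowest, with a median of -2.12.

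The 2 controls differ by 1 floxed allele. With 1 library per control genotype, no test was possible. The f/+ control differed from the +/+ control in the same direction as BKO differed from the controls for 42.8% of all tested genes. The share was 37.0% of the 311 genes higher at p under 0.05 and 45.5% of the 200 lower. This compares directions only, and no distance to the BKO values was computed. Genes that differed were sometimes next to each other. Of the 306 higher genes placed on a chromosome, 29 (9.48%) had an adjacent tested gene higher at p under 0.05, against 4.08% of all placed genes. Of 200 lower genes, 21 (10.5%) had an adjacent lower gene, against 2.71% of all. Runs included C1qb, C1qc and C1qa, the Cxcl10 and Cxcl11 pair, and Hspa1b and Hspa1a. Runs of lower digestive enzyme genes were Pnliprp1 and Pnliprp2, Cela2a and Ctrc, and the trypsins Try4 and Try5. Many of these runs hold related genes, for which reads that fit more than 1 gene were set aside and not counted. How far the lower acinar RNA in BKO raised the share of 10.5% was not tested.

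The authors' deposited table for this model lists 99 genes, 62 higher and 37 lower. All 99 had the same sign from the counts, groups that do not overlap and an unadjusted p under 0.05 by edgeR. Over all tested genes 16.3% lay above both controls, 13.7% lay below both, and 3.46% had such a p. The table is of this same comparison, so the match follows from how its genes were picked and is not independent support. DESeq2 called 75 of them, which is 75.8% of the table and 85.2% of the 88 DESeq2 calls. Fold changes in the authors' deposited table were smaller, with a median size of 0.683 on the log2 scale, against 1.23 from the counts. The gap was wide for the low-count Ghrl (0.64 in their table, 3.36 from the counts) and narrow for Lars2 (1.04 and 1.18). The 2 sets of fold changes may be unlike measures, and the reason for the gap was not tested. Of the 99 genes, 11 belonged to the acinar list. The largest adjusted p in the authors' deposited table was 0.194.

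Genes that differed in BKO tended to differ in the same direction in EKO, whose libraries are all separate. Of the 311 genes higher at p under 0.05 in BKO, 4 were not tested in the fit of all 8 libraries. Of the other 307, 76.9% were higher in EKO, against 48.7% of all genes, and 73 (23.8%) were higher at p under 0.05 there, against 2.08% of all genes. In either direction 3.7% of the 15041 genes of that fit had such a p. Of 200 lower genes, 82.5% were lower in EKO, against 51.2% of all genes, and 29 (14.5%) were lower at p under 0.05, against 1.59% of all genes. Leaving the acinar list out gave 76.9% and 80.9%. For the higher genes the share ran from 61.2% to 80.8% when 1 of the 8 libraries was left out. For the lower genes it ran from 50.5% without EKO control replicate 1, where it was 48.5% over all genes, to 87.5%. The lower share therefore rests on that library. The counts at p under 0.05 in EKO are less separate from BKO than the directions are. The fit of all 8 libraries takes the spread of each gene from both models together. Genes chosen by a small p in BKO tend to have little spread there, which also lowers their p in EKO. How far this raised the shares of 23.8% and 14.5% was not tested.

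Ambp and Th showed larger differences in EKO. Ambp was at 925 and 954 CPM in EKO, against 27.0 and 29.7 CPM in the EKO controls. Its log2 fold change there was 5.05 ± 0.20, and the difference between the models had an adjusted p of 0.0898 by edgeR over 15041 genes. Th was at 279 and 421 CPM in EKO, against 38.1 and 29.2 CPM in the EKO controls (3.38 ± 0.33). Txnip was higher in both models, at 313 and 782 CPM in EKO against 144 and 239 CPM in the EKO controls. For Lars2 the EKO log2 fold change was -0.15 ± 0.19, and for Trpm5 it was -0.02 ± 0.55. Ppm1e, a phosphatase lower in BKO, was at 22 and 24.6 CPM in EKO, against 11.4 and 14.6 CPM in the EKO controls, so it was higher there. No difference between the models passed after adjustment in edgeR's quasi-likelihood test (0 of 15041), and 152 (1.01%) had an unadjusted p under 0.05.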

How the data were processed

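Islet RNA was sequenced from stranded mRNA libraries, per the labels. The deposited values are raw counts of reads per gene made by the authors with TopHat and HTSeq on mm9, per the submitters' processing notes; neither versions nor the strand setting are given in the sources used here. Log2 fold change, p-value and adjusted p-value columns of the authors' deposited table were used only as theirs, and how its genes were chosen is not given there. Rows for HTSeq classes were left out of library sizes (not unique 34.5% to 37.0%, no feature 9.68% to 11.1% and ambiguous 0.114% to 0.127% of reads).

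Counts of the 4 libraries were tested in edgeR 4.0.16 with TMM scaling, filterByExpr (minimum count 10), quasi-likelihood fits and Benjamini-Hochberg adjustment over 14783 genes at a threshold of 0.05. R 4.3.3, limma 3.58.1 and DESeq2 1.42.0 gave alternatives, with other filters, scalings, covariates and left-out libraries. The EKO comparison used 1 fit of all 8 libraries. The code was tested on simulated data. Named genes were Sirt6, the 15 with the smallest p per direction with groups apart, fixed genes of interest, list members with the smallest p, and the leading genes of the authors' table and by CPM; the lymphoid genes, Esr1, Beta-s and neighbouring genes were chosen after their values were seen. Members, lists and tests were chosen with earlier results of these data known. A biological coefficient of variation of 0.31 limits precision more than depth. Replicates were not duplicates of 1 library (chi-square per degree of freedom 87.9 in BKO, 68.4 in controls).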

Additional observations from a re-analysis of the deposited data

How the results depend on the processing

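DESeq2 called 88 genes, 52 higher and 36 lower, where edgeR's quasi-likelihood test called 0; the cause was not tested. With all 8 libraries in 1 fit, 106 genes were higher and 41 lower at an unadjusted p under 0.05. With the acinar level as a covariate 338 were lower, and Sirt6 (-0.149), Ins1 (-0.1063) and Ins2 (-0.3027) turned negative on the log2 scale. The acinar median was then -0.06 by construction. The acinar level was below both controls in each BKO library, so that fit cannot tell it apart from the group. Leaving out 1 library gave 0 called, 226 to 366 higher and 139 to 408 lower (308 without BKO replicate 1, 342 without BKO replicate 2 and 408 without control replicate 2). Then Gcg ran from -0.32 to 0.31, Iapp from -0.32 to 0.16, Mafa from -0.85 to 0.44 and Slc2a2 from -0.39 to 0.21. The samples share replicate numbers only, with 2 pairs and a correlation of same-numbered deviations of 0.334, so they are not paired by design. A replicate block called 3 genes, all lower (Beta-s, Ctrb1 and Cwc22, adjusted p 0.0335 by edgeR). Over 86 named genes and 12 other alternatives, 1023 values kept direction and 3 reversed. With 2 residual degrees of freedom, a fold change much under the spread could not be detected.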

Other observations

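Some values stood apart from the comparison. Esr1, the estrogen receptor gene whose ligand-binding part is fused to Cre in CreERT, was at 1730 and 1088 CPM in BKO, against 565 and 1495 CPM in the controls. It was at 0.494 CPM or less in the 4 libraries of the EKO model, which carry no CreERT. The groups overlapped. Beta-s, a haemoglobin gene, was at 0.363 and 3.62 CPM in BKO and at 9.06 and 48.4 CPM in the controls. Glycam1, a gene of lymph node vessels, was at 41.7 and 0 CPM in BKO and at 9.04 and 0.0262 CPM in the controls. In EKO it was at 0.0438 and 180 CPM, against 6.62 and 0.0465 CPM in the EKO controls.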
